A study of Mus musculus with 12 samples.

Results

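The 9 genes described here are the ligands Vegfa, Vegfb, Vegfc and Pgf, the receptor tyrosine kinases Flt1, Kdr and Flt4, and the co-receptors Nrp1 and Nrp2, taken by symbol from the 31053 genes of single-nucleus count matrices of whole mouse lung. Each of the 9 was found once and each was detected. The nuclei came from 12 C57BL/6J mice in 4 groups of 3, with a library for each mouse. Mice were 7 weeks old and were given bleomycin, an agent that causes lung injury with later scarring, or phosphate-buffered saline (PBS) into the trachea. From day 5 they received NVP-BHG712, a small-molecule inhibitor of the receptor kinase EphB4, or its vehicle, polyethylene glycol with some N-methyl-2-pyrrolidone, by mouth once daily for 5 days, and lungs were taken on day 14. The groups were therefore PBS-vehicle, PBS-NVP, bleomycin-vehicle and bleomycin-NVP. Bleomycin was compared with PBS under vehicle, NVP-BHG712 with vehicle under each treatment, and bleomycin with PBS under NVP-BHG712. The difference between the 2 NVP-BHG712 effects was tested as an interaction.

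VEGF-A acts on endothelial cells mainly through the receptor encoded by Kdr (VEGFR2), which drives their survival, growth and permeability. The receptor encoded by Flt1 (VEGFR1) binds VEGF-A, VEGF-B and placental growth factor (Pgf) and signals weakly, so that it can hold ligand away from Kdr, while VEGF-C acts through the receptor encoded by Flt4 (VEGFR3) and is best known for lymphatic growth. The neuropilins Nrp1 and Nrp2 have short cytoplasmic tails and present VEGF and semaphorin ligands to partner receptors. In the alveolus, VEGF-A from type 1 epithelial cells (AT1) is known to sustain the aerocyte, a capillary cell specialised for gas exchange that lies beside the general capillary cell.

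In the GENCODE M21 annotation of GRCm38, Vegfa spans chr17:46016993-46032369, minus strand, Kdr spans chr5:75932827-75978458, minus strand and Flt1 spans chr5:147561604-147726011, minus strand. The 250 bases before the most upstream RefSeq start of these 3 genes (GRCm38.p6) are shown because VEGF-A and its receptors are the ligand and receptor set whose levels in alveolar epithelium and capillaries are compared below. Capitals mark motif matches on either strand.
Vegfa chr17:46032378-46032627, minus strand: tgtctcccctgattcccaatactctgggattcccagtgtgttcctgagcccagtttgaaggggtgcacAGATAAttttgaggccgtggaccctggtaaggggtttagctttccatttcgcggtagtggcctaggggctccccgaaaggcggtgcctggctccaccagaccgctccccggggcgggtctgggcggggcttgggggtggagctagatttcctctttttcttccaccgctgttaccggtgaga
Flt1 chr5:147726012-147726261, minus strand: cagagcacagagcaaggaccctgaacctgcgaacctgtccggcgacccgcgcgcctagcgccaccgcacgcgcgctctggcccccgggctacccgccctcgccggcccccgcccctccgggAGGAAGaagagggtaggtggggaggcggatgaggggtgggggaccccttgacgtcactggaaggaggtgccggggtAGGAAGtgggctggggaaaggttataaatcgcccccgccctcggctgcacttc
Kdr chr5:75978456-75978705, minus strand: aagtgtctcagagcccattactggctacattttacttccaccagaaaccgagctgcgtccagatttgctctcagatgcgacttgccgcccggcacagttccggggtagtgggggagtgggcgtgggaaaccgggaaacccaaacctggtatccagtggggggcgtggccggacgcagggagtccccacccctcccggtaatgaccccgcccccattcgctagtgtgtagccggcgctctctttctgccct
The motifs searched were ACGTG, the core of the hypoxia response element, AGGAAG and CGGAAG, which ETS factors bind, and AGATAA, which GATA factors bind. Vegfa held 1 AGATAA, Flt1 held 2 AGGAAG and Kdr held none of the 4 motifs in this window. Of the 9 members, 0 held ACGTG, 2 held AGGAAG (Flt1 and Nrp1), 0 held CGGAAG and 1 held AGATAA. Among 27025 RefSeq genes the same windows held these motifs in 16.5%, 29.2%, 13.8% and 10.2% of cases, in that order. The matches were not tied to any measured value.

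After filtering and doublet removal, 44611 nuclei entered the analysis, and lists of marker genes named 18 cell classes. Members were kept out of the leading genes read in naming, but not out of these lists. The lymphatic list held 7 markers in naming and 6 in the summed markers given below. The lymphatic level of a member may therefore depend in part on the naming. Before filtering, libraries held 3556084 to 61947690 UMIs (unique molecular identifiers, each 1 captured transcript), and 326 barcodes were shared over all pairs of libraries, none with identical counts. The bleomycin-vehicle libraries stood apart: their median mitochondrial share was 2.56%, 1.32% and 0.668%, and it was at most 0.0496% in the other 9. They were also labelled with batches 6, 6 and 7, whereas the bleomycin-NVP libraries carried run 4 and the PBS libraries runs 1 to 3. In every comparison between a bleomycin group and another group, batch and group cannot be told apart. Summed markers of each class were at least 9.33 times higher in that class than in the other named classes. Nothing in the labels says that libraries of a group were processed separately beyond these numbers, so p-values measure the spread between these mice and their libraries together.

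Levels are given as CPM, the UMIs of a gene relative to all UMIs of a class in a library with TMM scaling, averaged over libraries with at least 20 nuclei of that class. CPM is not corrected for gene length, so levels were compared between classes and not between genes. As a comparison level for free RNA, each gene was also read in B and in T or NK nuclei. Their median depth was 0.47 and 0.49 relative to the library median, against 1.85 in AT1, 1.07 in ciliated and 1.17 in club nuclei. An equal amount of free RNA per nucleus gives a higher CPM at lower depth, so the comparison level is approximate. The levels were a description and carried no test. The plot of levels by class shows that each gene other than Vegfb stood at over 2 times this level in 1 to 7 of the 16 other classes.

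**Figure D1:**
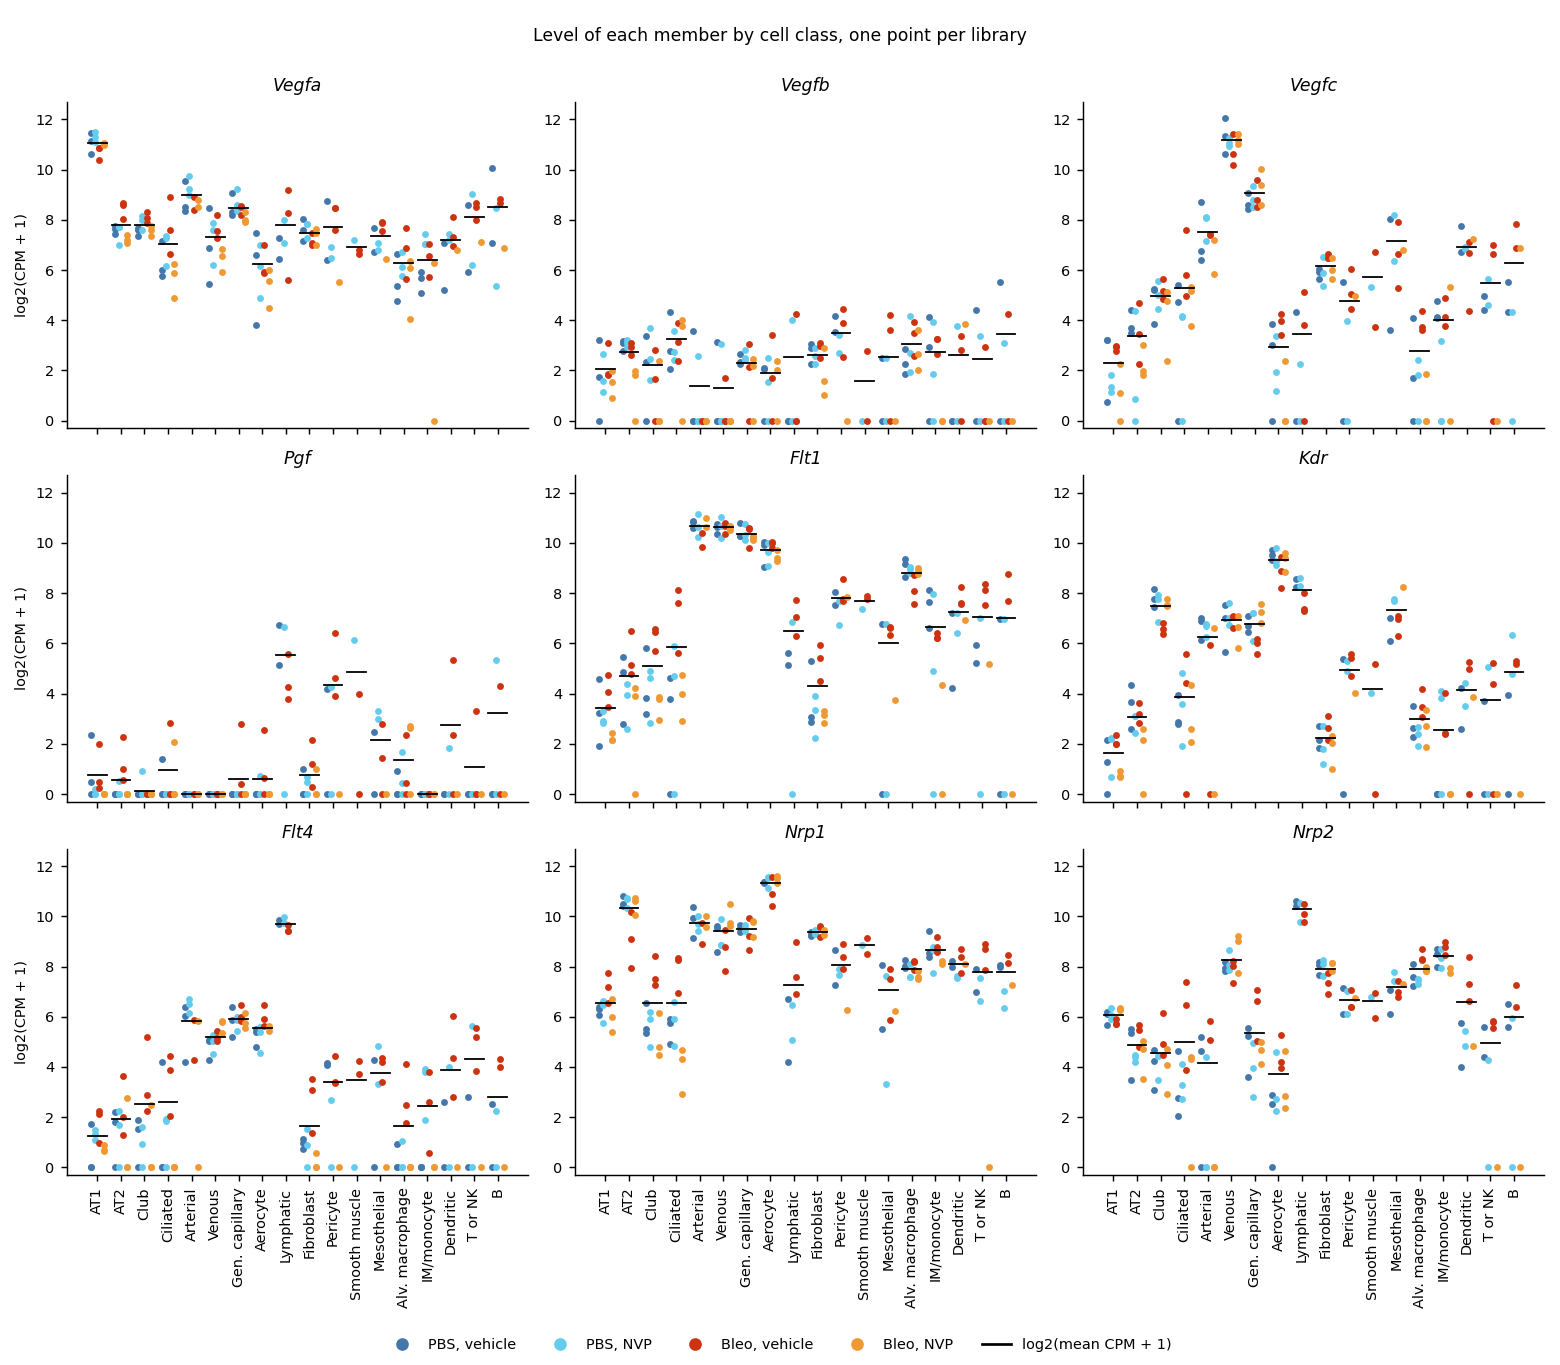
Level of each of the 9 genes, as log2(CPM + 1), in 18 cell classes; each point is 1 library with at least 20 nuclei of the class, coloured by group, and each black line is the mean. Vegfa stands out in AT1, Vegfc in venous, Kdr in aerocyte, Flt4 and Nrp2 in lymphatic nuclei, and Flt1 in the blood endothelial classes.

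Among the ligands, Vegfa was an AT1 gene. Its level in AT1 was 2135 ± 463 (SD, n = 12) CPM, and AT1 nuclei held 74.1% ± 21.1 (SD, n = 12) of its UMIs on average over libraries. PBS-vehicle mouse 2 lowered this mean and widened its SD. In that library named AT1 nuclei held 380 of 4170 Vegfa UMIs, and 539 nuclei stayed unnamed. Arterial nuclei came next with 502 ± 184 (SD, n = 10) CPM, and AT1 was higher in 10 of 10 libraries. General capillary nuclei gave 358 ± 109 (SD, n = 12) CPM and AT2 nuclei, the surfactant-secreting alveolar cells, 218 ± 89.7 (SD, n = 12) CPM. B nuclei gave 365 ± 344 (SD, n = 7) CPM, and 14 of the 16 other classes were at or below that mean, AT2, club and ciliated included.

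Vegfc was a venous gene at 2302 ± 791 (SD, n = 12) CPM, followed by general capillary nuclei at 533 ± 211 (SD, n = 12) CPM, and venous was higher in 12 of 12 libraries. Arterial nuclei gave 183 ± 107 (SD, n = 10) CPM, and aerocytes gave 6.74 ± 6.35 (SD, n = 12) CPM. The 5 endothelial classes together held 72.2% of Vegfc UMIs. Lymphatic nuclei, which carry its receptor Flt4, were near the bottom of the order at 9.89 ± 12.8 (SD, n = 7) CPM. B and T or NK nuclei gave 77.4 and 43.3 CPM. Mesothelial, dendritic, B and fibroblast nuclei followed arterial nuclei without a step that exceeded the SD of both neighbours.

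Vegfb and Pgf were scarce. Vegfb had 762 UMIs in all nuclei used, its highest class mean was 10.2 ± 6.85 (SD, n = 8) CPM in pericytes, and no step in its first 6 classes exceeded the SD of both neighbours. Pgf had 202 UMIs. Its highest means were 45.3 ± 41.7 (SD, n = 7) CPM in lymphatic, 28.1 ± 36.7 (SD, n = 3) CPM in smooth muscle and 19.6 ± 27.4 (SD, n = 8) CPM in pericyte nuclei, where 3 of 8 pericyte libraries held none. At this depth neither gene could be ordered across classes.

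Among the receptors, Flt1 was shared by blood endothelium and alveolar macrophages. Arterial nuclei gave 1625 ± 401 (SD, n = 10) CPM, venous 1576 ± 238 (SD, n = 12) CPM, general capillary 1321 ± 258 (SD, n = 12) CPM and aerocyte nuclei 837 ± 199 (SD, n = 12) CPM. Arterial and venous did not differ beyond their spread (arterial higher in 5 of 10 libraries), whereas general capillary nuclei were above aerocytes in 11 of 12 libraries. Alveolar macrophages, the resident phagocytes of the airspace, gave 451 ± 126 (SD, n = 12) CPM, against 100.2 ± 98.7 (SD, n = 11) CPM in interstitial macrophages or monocytes and 127 and 132 CPM in B and T or NK nuclei. Lymphatic nuclei gave 88.2 ± 71.0 (SD, n = 7) CPM, below both lymphocyte means.

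Kdr marked the aerocyte within the capillary bed. Aerocytes gave 639 ± 169 (SD, n = 12) CPM and held 50.7% of Kdr UMIs, lymphatic nuclei gave 281 ± 94.7 (SD, n = 7) CPM, and general capillary nuclei gave 109 ± 43.7 (SD, n = 12) CPM. Aerocytes were above lymphatic nuclei in 7 of 7 libraries. Outside the endothelium, club cells, the secretory cells of the small airway, gave 177 ± 65.0 (SD, n = 12) CPM, and mesothelial nuclei gave 158 ± 80.4 (SD, n = 8) CPM. Club nuclei held 15.5% of Kdr UMIs, while ciliated, AT2 and AT1 nuclei gave 13.6, 7.49 and 2.08 CPM, below the 27.8 CPM of B nuclei. Club, mesothelial, venous and general capillary nuclei did not differ between neighbours beyond their spread.

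Flt4 was highest in lymphatic nuclei at 822 ± 114 (SD, n = 7) CPM, a level that may depend in part on the naming, as stated above. General capillary (59.3 CPM), arterial (55.9 CPM), aerocyte (46.4 CPM) and venous nuclei (36.1 CPM) followed with overlapping spreads, and T or NK nuclei gave 18.7 CPM. Lymphatic nuclei numbered 372 of 44611 and held 28.2% of Flt4 UMIs, against 30.2% in general capillary nuclei.

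The 2 neuropilins had different class orders. Nrp1 was highest in aerocytes at 2579 ± 526 (SD, n = 12) CPM, and AT2 cells came next at 1294 ± 479.6 (SD, n = 12) CPM, above arterial nuclei (854 CPM) in 10 of 10 libraries. Fibroblasts gave 662 ± 63.5 (SD, n = 12) CPM and, as the largest class, held 33.9% of Nrp1 UMIs. AT1, club and ciliated nuclei gave 93.6, 93.8 and 93.6 CPM, below B (217 CPM) and T or NK nuclei (221 CPM).
Nrp2 was highest in lymphatic nuclei at 1244 ± 293 (SD, n = 7) CPM, above the next class in 7 of 7 libraries. The limit from naming stated for Flt4 may apply to this level too. Interstitial macrophages or monocytes gave 342 ± 95.5 (SD, n = 11) CPM, venous nuclei 308 ± 130.3 (SD, n = 12) CPM, alveolar macrophages 239 ± 79.0 (SD, n = 12) CPM and fibroblasts 235 ± 58.3 (SD, n = 12) CPM. Aerocytes were last of the 18 classes at 12.3 ± 11.3 (SD, n = 12) CPM. Fibroblasts held 48.4% of Nrp2 UMIs.

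The genes whose class means were most like each member were found by Pearson's r over the 18 classes, among the 7372 genes that reached 50 CPM in at least 1 class. Classes of 1 library share its depth and its free RNA, so r is a description. They were Ndst1 (r = 0.88) and Gm36569 (r = 0.87) for Vegfa, Abcb1a (r = 0.87) and Hmcn1 (r = 0.85) for Vegfc, Calcrl (r = 0.91) and Scarb1 (r = 0.90) for Flt1, Spns2 (r = 0.84) and Hs3st1 (r = 0.83) for Kdr and Crybb3 (r = 0.91) and Ushbp1 (r = 0.90) for Flt4. For the neuropilins they were Clic4 (r = 0.78) and Smurf2 (r = 0.75) for Nrp1 and Slco2b1 (r = 0.80) and Abca1 (r = 0.77) for Nrp2. For the scarce ligands they were Micu2 (r = 0.73) and Ift140 (r = 0.72) for Vegfb and 4833422C13Rik (r = 0.86) and Emid1 (r = 0.86) for Pgf.

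Differences between groups were tested in 11 classes with enough nuclei, and in each library's whole sum, by edgeR's quasi-likelihood test with Benjamini-Hochberg adjustment over all genes of a class. Of 99 member-by-class pairs, 56 passed the count filter. Pgf passed in 0 classes, Vegfb in 1 and Flt4 in 2, and lymphatic nuclei were not tested because 7 libraries held enough of them and none of those was bleomycin-NVP.

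Bleomycin was compared with PBS under vehicle. A total of 4 member-by-class pairs rose, Vegfa in AT2, Nrp2 in alveolar macrophages and Nrp1 in ciliated and club nuclei, and 2 fell, Kdr in club nuclei and Flt1 in alveolar macrophages. These were 6 of 56 tests (10.7%), against 2.19% of all 64279 class-by-gene tests. In the values that follow, the clustering was also run without Harmony, the correction between libraries, and on stricter nuclei (500 UMIs or more, 1% mitochondrial or less). By class, the share of all genes called was 3.57% in AT2, 3.54% in alveolar macrophages, 1.44% in ciliated and 1.61% in club nuclei. The 4 rises stood against 1.72% of all tests called higher, and the 2 falls against 0.478% called lower. The median member difference was 0.17 on the log2 scale, against -0.01 over all tests. When the 6 libraries compared were fitted alone, none of the 6 calls held, and 0 members were called at an adjusted p under 0.05 by edgeR, with 20 of 58 tests at an unadjusted p under 0.05. On counts simulated for this comparison, the test recovered 44%, 37% and 15% of 2-fold changes and 98%, 88% and 80% of 4-fold changes in AT2 (6031 genes), general capillary (6209) and ciliated nuclei (5964). Within a class, the simulation gave all genes the same dispersion. Apart from the set changes, each gene had the same expected share in every library, so recovery in the real libraries may differ.

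**Figure D2:**
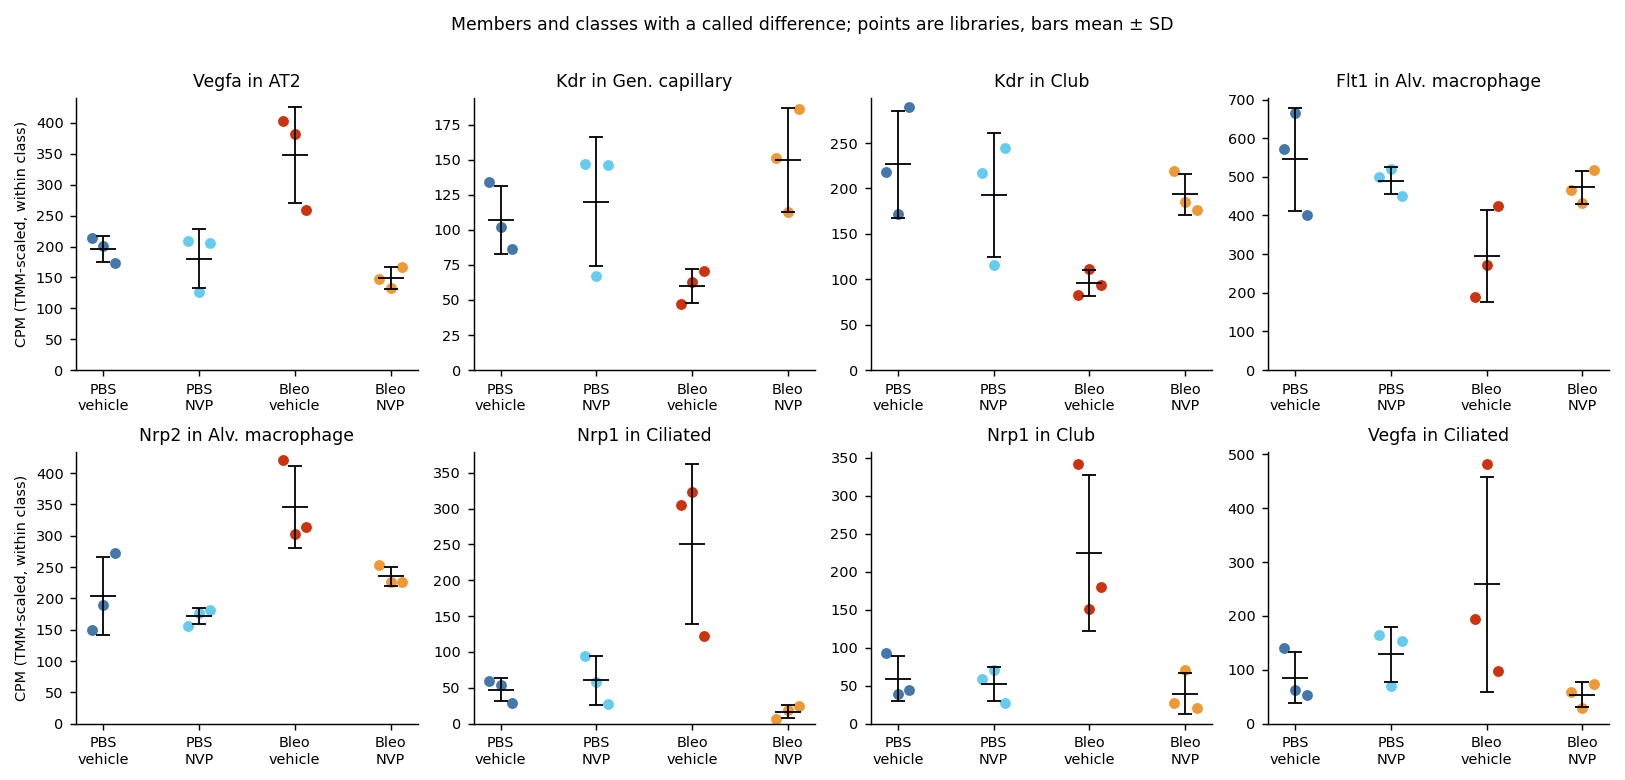
CPM of the 8 member-by-class pairs with a called difference in any comparison; points are libraries, horizontal marks and bars are mean ± SD of 3 libraries, and each axis starts at 0. The bleomycin-vehicle libraries are high for Vegfa in AT2, Nrp1 in ciliated and club and Nrp2 in alveolar macrophages, and low for Kdr in club and general capillary nuclei.

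In AT2 nuclei, Vegfa gave 214, 200.2 and 174 CPM in the 3 PBS-vehicle libraries, 209, 126 and 206 in PBS-NVP, 403, 382 and 259 in bleomycin-vehicle and 147, 132 and 168 in bleomycin-NVP. The bleomycin-vehicle libraries were the 3 highest and overlapped no other group. Vegfa was higher in bleomycin-vehicle than in PBS-vehicle (log2 fold change 0.90, SE 0.24, adjusted p = 0.0433). The call was lost without bleomycin-NVP mouse 1, 2 or 3, bleomycin-vehicle mouse 1 or 2, PBS-NVP mouse 1 or 3, or PBS-vehicle mouse 1, 2 or 3 (adjusted p = 0.0511 to 0.174). It was also lost with members among the clustering genes (adjusted p = 0.0863, log2 fold change 0.80), without Harmony (adjusted p = 0.159, log2 fold change 0.58) or with the libraries compared alone (adjusted p = 0.14, log2 fold change 0.90). AT1 markers summed to 1269 to 2172 CPM in the AT2 nuclei of PBS-vehicle libraries and to 2769 to 3500.0 CPM in those of bleomycin-vehicle, with 10 of 10 markers detected in both. AT2's own markers summed to 14368 to 15603 CPM and 5099 to 12958 CPM. Their part in the Vegfa difference was not tested. Vegfa in B and T or NK nuclei gave 60.3 to 1058 CPM in PBS-vehicle libraries and 253 to 454 CPM in those of bleomycin-vehicle. The AT2 values of both groups were inside these ranges, and the part of free RNA was not tested.

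In alveolar macrophages, Flt1 gave 572, 664 and 401 CPM in the 3 PBS-vehicle libraries, 499, 519 and 451 in PBS-NVP, 190.0, 271 and 424 in bleomycin-vehicle and 466, 434 and 517 in bleomycin-NVP. Bleomycin-vehicle held the 2 lowest of the 12 values, but its highest overlapped PBS-vehicle. Flt1 fell (log2 fold change -0.83, SE 0.22, adjusted p = 0.0407). It did not pass without bleomycin-NVP mouse 1 or 3, bleomycin-vehicle mouse 1 or 2, PBS-NVP mouse 2 or 3, or PBS-vehicle mouse 1 or 2 (adjusted p = 0.0501 to 0.166). The same held without Harmony (adjusted p = 0.158, log2 fold change -0.54) or with the libraries compared alone (adjusted p = 0.163, log2 fold change -0.86). For the co-receptor in the same nuclei, Nrp2 gave 149.7, 189.8 and 273 CPM in the 3 PBS-vehicle libraries, 157, 176 and 181 in PBS-NVP, 420.4, 302 and 314 in bleomycin-vehicle and 253, 226 and 226 in bleomycin-NVP. Every bleomycin-vehicle library was above the other 9. Nrp2 rose (log2 fold change 0.86, SE 0.22, adjusted p = 0.0327). Without bleomycin-NVP mouse 1, 2 or 3, bleomycin-vehicle mouse 1 or 2, or PBS-vehicle mouse 1 or 2, the difference missed the threshold (adjusted p = 0.0503 to 0.187). Nor did it pass with doublets kept (adjusted p = 0.0556, log2 fold change 0.69), with members among the clustering genes (adjusted p = 0.058, log2 fold change 0.80), without Harmony (adjusted p = 0.419, log2 fold change 0.45) or with the libraries compared alone (adjusted p = 0.176, log2 fold change 0.82). Markers of interstitial macrophages or monocytes, a class in which Nrp2 was higher and Flt1 lower, summed to 7.70 to 11.02 CPM in these nuclei under PBS-vehicle (8 of 10 markers detected) and to 52.5 to 271 CPM under bleomycin-vehicle (9 of 10 detected). Their part in either difference was not tested.

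In club nuclei, Kdr gave 218, 172 and 289 CPM in the 3 PBS-vehicle libraries, 217, 116 and 245 in PBS-NVP, 82.5, 111 and 94.1 in bleomycin-vehicle and 219, 185 and 177 in bleomycin-NVP. The 3 bleomycin-vehicle values were below the other 9. Kdr fell (log2 fold change -1.14, SE 0.28, adjusted p = 0.0393). The call was lost without bleomycin-vehicle mouse 2 or 3, or PBS-vehicle mouse 1 or 3 (adjusted p = 0.0625 to 0.145). It was also lost with stricter nuclei (adjusted p = 0.0506, log2 fold change -1.24) or with the libraries compared alone (adjusted p = 0.0624, log2 fold change -1.13). Markers of aerocytes, the class of highest Kdr level, summed to 397 to 650.3 CPM in PBS-vehicle and 577 to 2275 CPM in bleomycin-vehicle club nuclei, and their part in the Kdr difference was not tested.

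In ciliated nuclei, Nrp1 gave 59.1, 53.6 and 29.4 CPM in the 3 PBS-vehicle libraries, 94.7, 58.8 and 27.2 in PBS-NVP, 305, 324 and 122 in bleomycin-vehicle and 6.50, 19.1 and 24.8 in bleomycin-NVP. These values rest on 5 to 37 UMIs per library in PBS-vehicle and 22 to 237 in bleomycin-vehicle. Nrp1 rose (log2 fold change 2.39, SE 0.46, adjusted p = 0.0118), and the groups did not overlap. It did not pass without bleomycin-vehicle mouse 2, or PBS-vehicle mouse 2 or 3 (adjusted p = 0.0631 to 0.111). The same held with stricter nuclei (adjusted p = 0.0687, log2 fold change 1.91) or with the libraries compared alone (adjusted p = 0.081, log2 fold change 2.47). In club nuclei, Nrp1 gave 92.8, 39.7 and 44.8 CPM in the 3 PBS-vehicle libraries, 58.5, 71.0 and 26.9 in PBS-NVP, 342, 151 and 180.0 in bleomycin-vehicle and 26.6, 70.7 and 21.05 in bleomycin-NVP. Nrp1 rose there also (log2 fold change 1.77, SE 0.43, adjusted p = 0.048). Without bleomycin-NVP mouse 1, bleomycin-vehicle mouse 2, PBS-NVP mouse 1 or 2, or PBS-vehicle mouse 2 or 3, the difference missed the threshold (adjusted p = 0.0519 to 0.237). Nor did it pass with RLE normalization (adjusted p = 0.059, log2 fold change 1.79), without Harmony (adjusted p = 0.0658, log2 fold change 1.89), with stricter nuclei (adjusted p = 0.0987, log2 fold change 1.16) or with the libraries compared alone (adjusted p = 0.0712, log2 fold change 1.79). Under PBS-vehicle, each ciliated and club value was below the B and T or NK libraries (126 to 269 CPM). Under bleomycin-vehicle, B and T or NK libraries gave 230 to 475 CPM. Ciliated values of 305 and 324 and the club value of 342 were inside that range. The ciliated value of 122 and the club values of 151 and 180.0 were below it. T or NK nuclei gave 184 ± 81.7 (SD, n = 2) CPM under PBS-vehicle and 374 ± 128 (SD, n = 3) CPM under bleomycin-vehicle. Aerocytes gave 2623 ± 62.0 (SD, n = 3) and 2094 ± 858 (SD, n = 3) CPM in the same groups. Aerocyte markers in ciliated nuclei summed to 59.9 to 132 CPM in PBS-vehicle and 174 to 492 CPM in bleomycin-vehicle, and fibroblast markers to 128 to 264 CPM and 255 to 707 CPM. In club nuclei fibroblast markers summed to 83.3 to 125 CPM and 304 to 379 CPM. Their part was not tested.

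**Figure D3:**
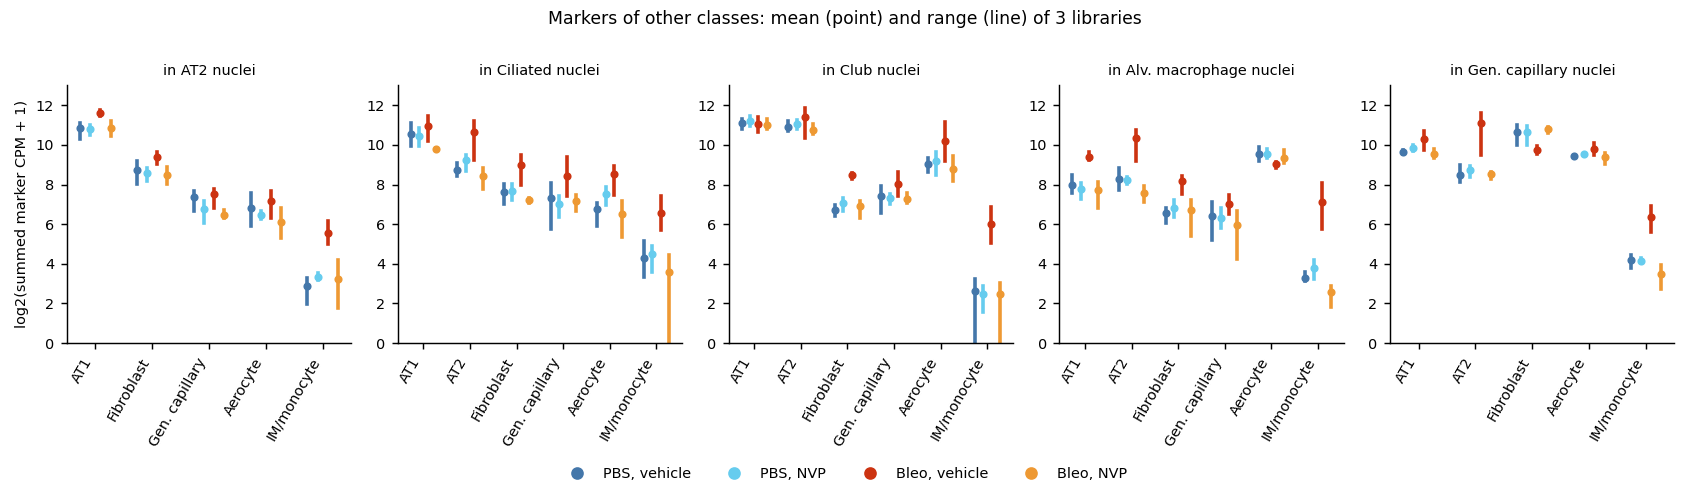
Summed CPM of the markers of other classes, as log2(CPM + 1), inside AT2, ciliated, club, alveolar macrophage and general capillary nuclei; points are means and lines the range of 3 libraries, coloured by group. Markers of interstitial macrophages or monocytes are highest in bleomycin-vehicle in each of the 5 classes.

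Vegfa, Vegfc, Flt1, Kdr and Nrp1 were tested in their class of highest level and gave no called difference there by edgeR under bleomycin. Flt4, Nrp2 and Pgf were highest in lymphatic nuclei and Vegfb in pericytes, which were not tested. In AT1 nuclei, Vegfa gave 2843, 1567 and 2259 CPM in the 3 PBS-vehicle libraries, 2902, 2196 and 2521 in PBS-NVP, 1348, 1868 and 1868 in bleomycin-vehicle and 2065, 2027 and 2158 in bleomycin-NVP. The bleomycin-vehicle values overlapped those of PBS-vehicle only through PBS-vehicle mouse 2 (log2 fold change -0.38, SE 0.19, adjusted p = 0.382). In that library 63 nuclei were named AT1 and 539 (22.2%) stayed unnamed, and AT1 nuclei held 380 of its 4170 Vegfa UMIs. In venous nuclei, Vegfc gave 1568, 2603 and 4249 CPM in the 3 PBS-vehicle libraries, 1976, 2475 and 2152 in PBS-NVP, 1155, 1563 and 2725 in bleomycin-vehicle and 2311, 2764 and 2084 in bleomycin-NVP. The PBS-vehicle libraries alone spanned the values of the other groups except the lowest 2 of bleomycin-vehicle (log2 fold change -0.53, SE 0.31, adjusted p = 0.903). In aerocytes, Kdr gave 841, 645 and 725 CPM in the 3 PBS-vehicle libraries, 885, 557 and 626 in PBS-NVP, 295, 475 and 698 in bleomycin-vehicle and 464, 679.5 and 775 in bleomycin-NVP. The lowest 2 bleomycin-vehicle libraries were below every PBS library and the third was not (log2 fold change -0.56, SE 0.23, adjusted p = 0.548). For its co-receptor in aerocytes, Nrp1 gave 2646, 2552 and 2669.7 CPM in the 3 PBS-vehicle libraries, 2971, 2238 and 3008 in PBS-NVP, 1354, 1894 and 3035 in bleomycin-vehicle and 2948, 2548 and 3089 in bleomycin-NVP. The bleomycin-vehicle libraries covered both the lowest and one of the highest values (log2 fold change -0.32, SE 0.21, adjusted p = 0.879).
In AT2 nuclei, Nrp1 gave 1794, 1444 and 1373 CPM in the 3 PBS-vehicle libraries, 1670.2, 1691 and 1287 in PBS-NVP, 247, 544 and 1165 in bleomycin-vehicle and 1563, 1686 and 1069 in bleomycin-NVP. Each bleomycin-vehicle library was below the 3 PBS-vehicle libraries, but the difference did not pass (log2 fold change -1.17, SE 0.34, adjusted p = 0.0705). It passed without bleomycin-vehicle mouse 3 (log2 fold change -1.78, adjusted p = 9.15e-05), the deepest library, with doublets kept (-1.26, adjusted p = 0.0192) and with DESeq2 (-1.17, adjusted p = 0.00879). In fibroblasts, Nrp2 gave 268, 204 and 292 CPM in the 3 PBS-vehicle libraries, 274, 198 and 307 in PBS-NVP, 162, 118 and 211 in bleomycin-vehicle and 284, 227 and 281 in bleomycin-NVP. The lowest 2 of the 12 values were bleomycin-vehicle libraries and the third overlapped the other groups (log2 fold change -0.58, SE 0.23, adjusted p = 0.189). Flt1 in general capillary nuclei gave 1758, 1248 and 1247 CPM in PBS-vehicle and 1518, 902 and 1532 CPM in bleomycin-vehicle, with overlapping ranges (log2 fold change 0.04, SE 0.23, adjusted p = 0.981). In arterial nuclei, its class of highest level, it gave 1748 ± 170.2 (SD, n = 3) and 1139 ± 309 (SD, n = 2) CPM (log2 fold change -0.58, SE 0.27, adjusted p = 0.753).

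**Figure D4:**
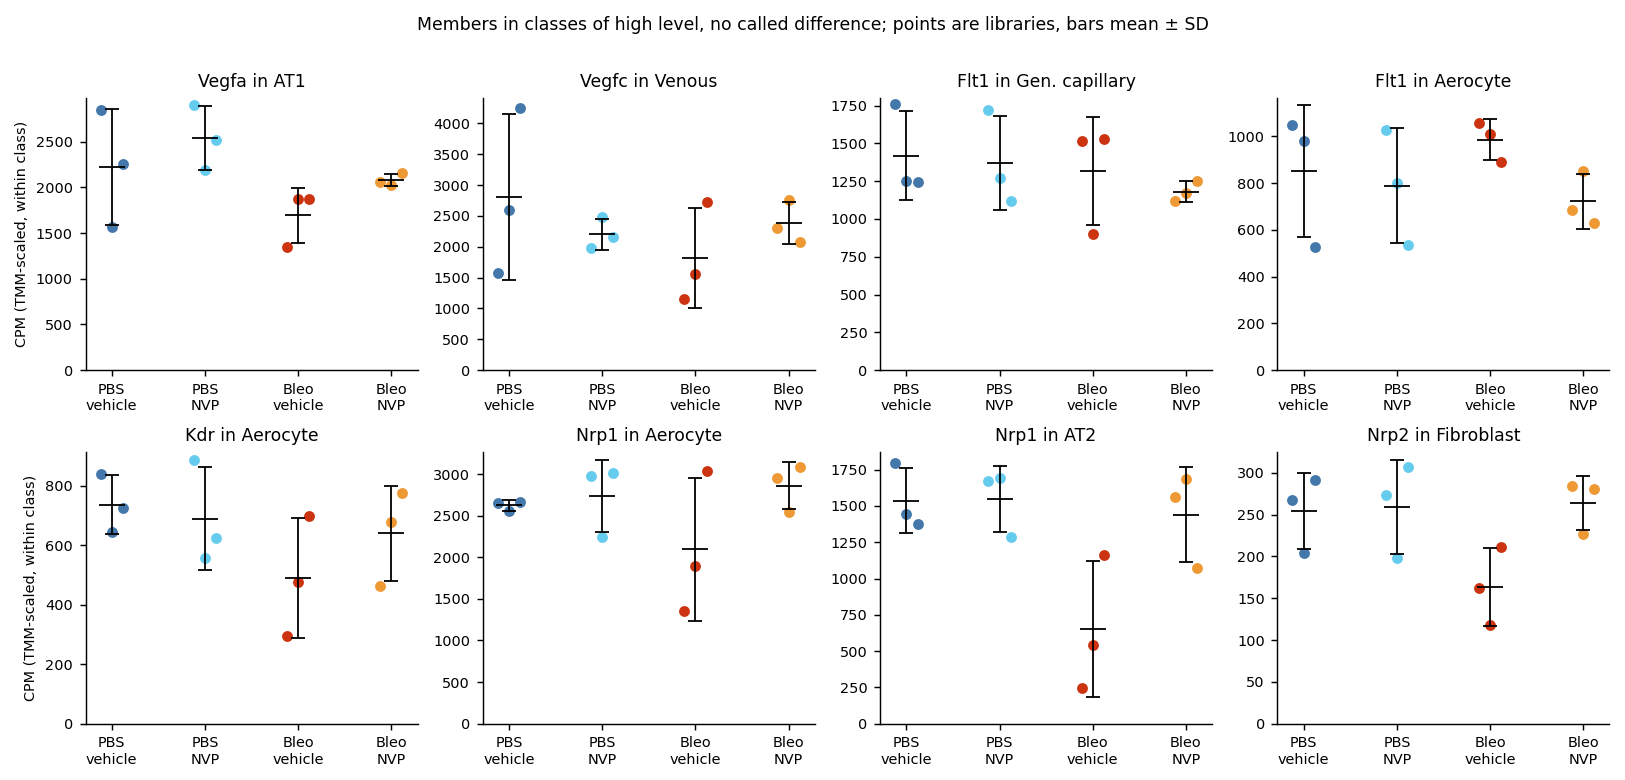
CPM of 8 member-by-class pairs of high level that gave no called difference; points are libraries, horizontal marks and bars are mean ± SD of 3 libraries, and each axis starts at 0. Bleomycin-vehicle libraries spread widely for Nrp1 in AT2 and aerocyte and for Kdr in aerocyte nuclei.

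NVP-BHG712 was then compared with vehicle in bleomycin-treated lungs. Vegfa fell in AT2 and ciliated nuclei, Nrp1 fell in ciliated and club nuclei, and Kdr rose in general capillary nuclei. These were 5 of 56 tests (8.93%), against 3.56% of all tests called, with 1 rise against 1.03% and 4 falls against 2.53%. By class, the share of all genes called was 4.6% in AT2, 4.14% in ciliated, 1.67% in club and 4.29% in general capillary nuclei. The median member difference was -0.48 on the log2 scale, against -0.01 over all tests. This comparison and the one above share the 3 bleomycin-vehicle libraries, so a value that was high there enters both with opposite sign.

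In general capillary nuclei, Kdr gave 134, 102 and 86.1 CPM in the 3 PBS-vehicle libraries, 147, 66.9 and 146 in PBS-NVP, 46.9, 63.1 and 70.5 in bleomycin-vehicle and 151, 112 and 187 in bleomycin-NVP. The 3 bleomycin-vehicle libraries, with 8 to 226 UMIs of Kdr each, were below the 3 bleomycin-NVP libraries. Kdr was 2.25-fold higher with NVP-BHG712 (log2 fold change 1.17, SE 0.30, adjusted p = 0.0352). The call was lost without bleomycin-NVP mouse 1 or 3, or bleomycin-vehicle mouse 1 or 2 (adjusted p = 0.0609 to 0.172). It was also lost with stricter nuclei (adjusted p = 0.0725, log2 fold change 1.35). Bleomycin-vehicle against PBS-vehicle gave a difference in the other direction that did not pass (log2 fold change -0.70, SE 0.29, adjusted p = 0.227). The class's own markers summed to 5708 to 6669.9 CPM in PBS-vehicle, 1638 to 5506 CPM in bleomycin-vehicle and 5059 to 7345 CPM in bleomycin-NVP, and AT2 markers in it to 277 to 511 CPM, 715 to 3072 CPM and 306 to 394 CPM. Their part was not tested. Kdr in aerocytes did not pass (log2 fold change 0.37, SE 0.24, adjusted p = 0.584), nor did it in club nuclei (log2 fold change 0.96, SE 0.30, adjusted p = 0.107), where the bleomycin-NVP values of 219, 185 and 177 CPM lay above the 82.5, 111 and 94.1 CPM of bleomycin-vehicle.

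Vegfa in AT2 was lower with NVP-BHG712 in all 3 libraries, with no overlap (log2 fold change -1.32, SE 0.25, adjusted p = 0.00736). It did not pass without bleomycin-NVP mouse 2 (adjusted p = 0.0543). AT1 markers in these nuclei summed to 1395 to 2353 CPM in bleomycin-NVP, below each bleomycin-vehicle library, and this part was not tested. In bleomycin-NVP, only mouse 2 had enough lymphocyte nuclei. There Vegfa gave 116 CPM in B and 139 CPM in T or NK nuclei, against 132 CPM in AT2, and the part of free RNA was not tested. In ciliated nuclei, Vegfa gave 140.5, 63.1 and 52.9 CPM in the 3 PBS-vehicle libraries, 164, 70.0 and 153 in PBS-NVP, 194, 482 and 98.5 in bleomycin-vehicle and 58.5, 28.7 and 74.4 in bleomycin-NVP. Of the bleomycin-vehicle values, 194 and 98.5 were below the 253 to 454 CPM of its B and T or NK libraries, and 482 was above. Vegfa fell (log2 fold change -2.40, SE 0.62, adjusted p = 0.042), and bleomycin-vehicle mouse 2 held the highest value. Without bleomycin-NVP mouse 1, 2 or 3, or bleomycin-vehicle mouse 1 or 2, the difference missed the threshold (adjusted p = 0.0995 to 0.484). The same held without Harmony (adjusted p = 0.0831, log2 fold change -2.03), with stricter nuclei (adjusted p = 0.164, log2 fold change -2.16) or with the libraries compared alone (adjusted p = 0.059, log2 fold change -2.54). Nrp1 in ciliated nuclei fell from 250.1 ± 112 (SD, n = 3) to 16.8 ± 9.37 (SD, n = 3) CPM (log2 fold change -3.84, SE 0.57, adjusted p = 0.000878), where bleomycin-NVP libraries held 1 to 6 UMIs. The call held without each of the 12 libraries in turn. Nrp1 in club nuclei fell from 224 ± 103 (SD, n = 3) to 39.5 ± 27.2 (SD, n = 3) CPM (log2 fold change -2.20, SE 0.48, adjusted p = 0.0288). The call was lost without bleomycin-NVP mouse 1 or 3 (adjusted p = 0.101 to 0.144). The free RNA values given above for Nrp1 apply here: aerocyte markers in ciliated nuclei summed to 40.1 to 141 CPM and fibroblast markers in club nuclei to 79.8 to 143 CPM in bleomycin-NVP. When tests were limited to pairs for which no other class was over 10 times higher, a limit chosen after the data were seen, the 2 calls left were Vegfa in AT2 and Kdr in general capillary nuclei. Vegfa in AT2 was close to that limit, at a mean of 218 CPM against 2135 CPM in AT1. This AT2 mean includes the bleomycin-vehicle libraries, where Vegfa was high.

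With all 12 libraries in the fit, edgeR called Flt1 in no class for NVP-BHG712 after bleomycin, but this depended on the fit. DESeq2 called it lower in AT1, AT2, ciliated, club and fibroblast nuclei (adjusted p = 0.00325 to 0.04). Without bleomycin-vehicle mouse 3, edgeR called it lower in these 5 classes (adjusted p = 0.000326 to 0.0366) and higher in alveolar macrophages (adjusted p = 0.00434). Over all alternatives it was called in 10 for ciliated, 8 for club, 8 for fibroblast, 7 for AT1, 5 for AT2 and 3 for alveolar macrophage nuclei. In aerocyte, arterial, general capillary and venous nuclei, its classes of highest level, the difference was -0.46 (SE 0.23), 0.78 (SE 0.30), -0.26 (SE 0.23) and -0.11 (SE 0.27) on the log2 scale. In AT1, AT2, club, ciliated and fibroblast nuclei, where Flt1 averaged 9.88 to 57.6 CPM and was below the lymphocyte means, the difference was -2.15, -2.32, -2.57, -3.34 and -2.37, with adjusted p from 0.054 to 0.129. In interstitial macrophages or monocytes it was -3.10 (adjusted p = 0.778). In alveolar macrophages it was positive (log2 fold change 0.66, SE 0.22, adjusted p = 0.125), with bleomycin-NVP at 466, 434 and 517 CPM against 190.0, 271 and 424 CPM.

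**Figure D5:**
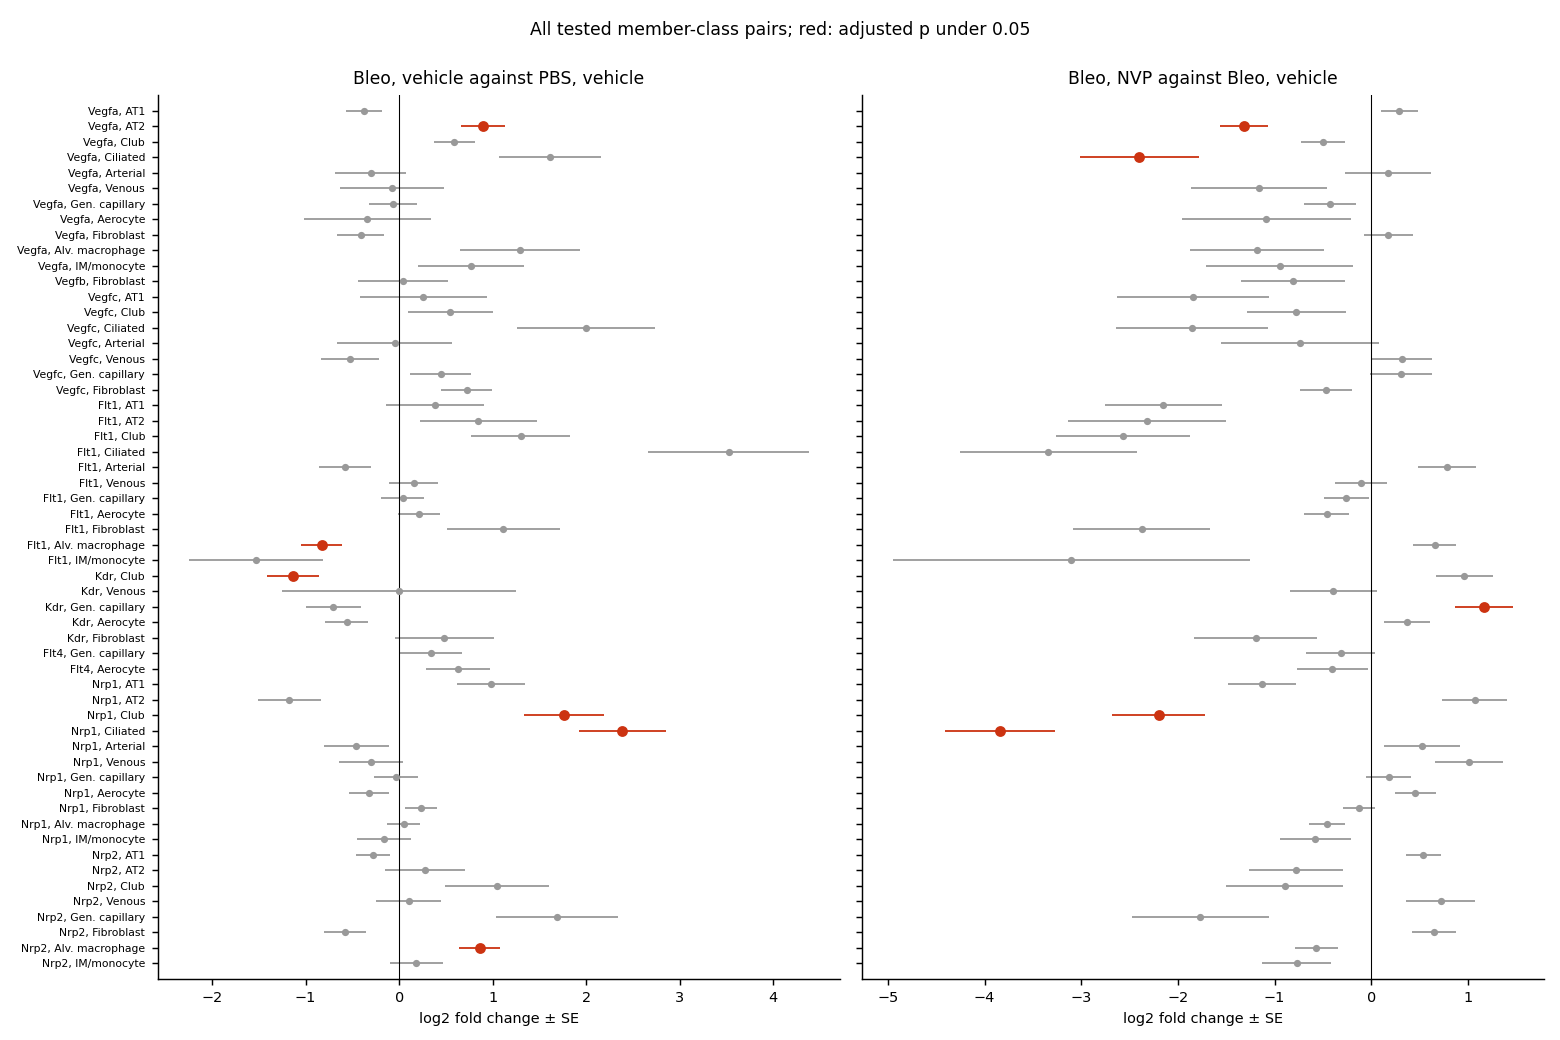
Log2 fold change ± SE of the 56 tested member-by-class pairs for bleomycin-vehicle against PBS-vehicle (left) and bleomycin-NVP against bleomycin-vehicle (right); red points have an adjusted p under 0.05. The red points number 6 on the left and 5 on the right, and Flt1 in ciliated nuclei lies at -3.34 on the right with an adjusted p of 0.054.

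In PBS-treated lungs, no member passed the test for NVP-BHG712. edgeR called 0 of 56 tests, DESeq2 called 0, and 2 were at an unadjusted p under 0.05, while 0% of all 64279 tests were called. The 2 were Vegfc in AT1 (log2 fold change -1.67, SE 0.76, adjusted p = 1) and Vegfa in interstitial macrophages or monocytes (log2 fold change 1.55, SE 0.59, adjusted p = 0.999). When the fit of the PBS libraries held run number as a block, 1 member was called, Vegfa in aerocytes (log2 fold change -1.18, adjusted p = 0.0229). Bleomycin-NVP against PBS-NVP also gave 0 calls of 56 by edgeR and 0 by DESeq2, with 5 tests at an unadjusted p under 0.05 and 0% of all tests called. Among those 5, Nrp1 in ciliated nuclei was at 6.50, 19.1 and 24.8 CPM in bleomycin-NVP and 94.7, 58.8 and 27.2 CPM in PBS-NVP (log2 fold change -1.88, SE 0.59, adjusted p = 1), and Nrp2 in alveolar macrophages was at 253, 226 and 226 and 157, 176 and 181 CPM (log2 fold change 0.52, SE 0.23, adjusted p = 1).

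The interaction asked whether the NVP-BHG712 effect differed between bleomycin and PBS. It was called for 1 of 56 tests, Nrp1 in ciliated nuclei (log2 fold change -4.26, SE 0.74, adjusted p = 0.0103), against 0.311% of all tests and 0.496% of all genes in ciliated nuclei. It did not pass without bleomycin-NVP mouse 2, or PBS-NVP mouse 1 (adjusted p = 0.0654 to 0.0737). Kdr in general capillary nuclei gave log2 fold change 1.04, SE 0.41, adjusted p = 0.326, and Vegfa in AT2 nuclei gave log2 fold change -1.19, SE 0.35, adjusted p = 0.194, so their NVP-BHG712 effects were not shown to differ between bleomycin and PBS. Vegfa in AT2 passed without bleomycin-vehicle mouse 3 (log2 difference -1.43, adjusted p = 0.00475).

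Summed over all nuclei of a library, no member was called by edgeR in any of the 5 comparisons, with 1, 2, 0, 0 and 1 of 9 tests at an unadjusted p under 0.05. Of all genes, 2.55% were called for bleomycin under vehicle, 5.6% for NVP-BHG712 after bleomycin, 0.346% for the interaction and 0% for the other 2 comparisons. In whole sums a smaller share of a class and less RNA per nucleus cannot be told apart. Vegfa gave 807, 599 and 799 CPM in PBS-vehicle, 586, 592 and 584 in bleomycin-vehicle and 799, 605 and 822 in bleomycin-NVP (log2 fold change -0.30, SE 0.20, adjusted p = 0.455 for bleomycin under vehicle). Kdr gave 75.9, 61.0 and 50.4, 28.0, 50.7 and 49.2 and 44.9, 61.0 and 62.6 CPM in the same groups (log2 fold change -0.53, SE 0.24, adjusted p = 0.266). Flt4 gave 26.1, 19.6 and 13.8 CPM in bleomycin-vehicle and 9.27, 10.2 and 7.78 CPM in bleomycin-NVP, without overlap. It did not pass with edgeR (log2 fold change -1.13, SE 0.36, adjusted p = 0.0852) and passed with DESeq2 (log2 fold change -1.11, adjusted p = 0.0328), which called 1 member in that comparison and 0 in the other 4. Lymphatic nuclei, the class of highest Flt4, were 0.998% ± 0.263 of nuclei in bleomycin-vehicle and 0.443% ± 0.274 in bleomycin-NVP (SD, n = 3).

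A list of 56 other genes of the pathway was read in the same fits: the ligand Vegfd and its processing factors, hypoxia regulators, receptor partners and phosphatases, downstream kinases and response genes. Of these, 52 passed the filter in at least 1 class, in 407 class-by-gene tests. Under bleomycin with vehicle 10 tests rose and 0 fell, with a median of 0.12 on the log2 scale, and the 10 are near the 2.19% of all tests called. With NVP-BHG712 in bleomycin-treated lungs 7 rose and 15 fell, with a median of -0.12, and these are 22 of 407 tests against 3.56% of all. The other 3 comparisons gave 0 calls, with 4, 9 and 45 tests at an unadjusted p under 0.05. Vegfd, a ligand of Flt4, was a fibroblast gene at 388 ± 164 CPM (SD, n = 12), followed by ciliated nuclei at 131 ± 50.7 CPM.

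Under bleomycin with vehicle the smallest adjusted p belonged to Prkcb, a protein kinase C, which rose in alveolar macrophages to 76.3 ± 25.6 against 6.72 ± 5.33 CPM (SD, n = 3; log2 fold change 4.45, adjusted p = 0.000757) and in fibroblasts to 12.3 ± 4.29 against 1.25 ± 0.731 CPM (SD, n = 3; log2 fold change 3.48, adjusted p = 0.0037). Its level in B nuclei was 1707 CPM, 74.8 and 403 times the mean of those classes, and the part of free RNA was not tested. Epas1, the hypoxia-inducible factor of endothelium, rose in alveolar macrophages to 119 ± 43.9 against 39.1 ± 16.2 CPM (SD, n = 3; log2 fold change 1.50, adjusted p = 0.0122), and it was highest in general capillary nuclei at 1964 CPM.
With NVP-BHG712 after bleomycin, Plcg1, the phospholipase that Kdr activates, rose in AT2 nuclei to 161 ± 15.3 against 80.3 ± 7.02 CPM (SD, n = 3; log2 fold change 0.90, adjusted p = 0.0166). The Src family kinase gene Fyn rose in fibroblasts to 289 ± 25.5 against 148 ± 42.5 CPM (SD, n = 3; log2 fold change 0.93, adjusted p = 0.0332), and the protein kinase D gene Prkd1 rose in AT1 to 2358 ± 251 against 1340.0 ± 279 CPM (SD, n = 3; log2 fold change 0.81, adjusted p = 0.0332). By edgeR, Prkd1 was also called higher in whole lung (log2 fold change 0.67, adjusted p = 0.0128) but lower in fibroblasts (log2 fold change -1.92, adjusted p = 0.0404). Ptprj, a phosphatase that acts on Kdr, fell in venous nuclei to 637 ± 211 against 1904 ± 548 CPM (SD, n = 3; log2 fold change -1.68, adjusted p = 0.00324). By edgeR it also fell in fibroblasts (-2.37, adjusted p = 0.0109) and general capillary nuclei (-1.58, adjusted p = 0.0261). Under bleomycin with vehicle, edgeR called Ptprj higher in AT2, fibroblast, general capillary and venous nuclei (log2 fold change 0.95, 2.00, 1.61 and 1.27). Its level was highest in dendritic nuclei at 2193 CPM. Prkcb fell in alveolar macrophages to 5.53 ± 2.39 against 76.3 ± 25.6 CPM (SD, n = 3; log2 fold change -3.72, adjusted p = 0.00576), and Prkca, another protein kinase C, fell in general capillary nuclei to 34.0 ± 6.43 against 149 ± 73.9 CPM (SD, n = 3; log2 fold change -2.21, adjusted p = 0.00953). The level of Prkca in fibroblasts was 1627 CPM, 21.9 times its general capillary mean, and the part of free RNA was not tested.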

How the data were processed

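Nuclei from snap-frozen, PBS-perfused lungs were isolated with a dounce, sorted on DAPI and run on 10x Genomics 3′ chemistry. The authors aligned reads to mm10 and deposited a matrix of raw UMI counts per library. The file headers name Cell Ranger 7.2.0, while the submitters' processing notes list Cell Ranger 7.0 and Seurat 4.4.1.

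From these deposited counts, 49163 barcodes were filtered on 200 to 6000 genes and at most 5% mitochondrial UMIs (47319 kept), and 2708 scored doublets were removed. Nuclei were clustered on 30 components of 2000 variable genes, without members or pathway genes, corrected by library with an implementation of Harmony and grouped by Leiden (scanpy 1.11.5). Of 24 clusters, 20 were named from 25 marker lists, and 4 stayed unnamed (1503 nuclei). A name needed at least 3 markers raised over clusters with another leading list, own markers among the leading genes, and depth within limits.

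Counts were summed per class and library (at least 20 nuclei, at least 2 libraries in each group) and tested with edgeR 4.0.16 (quasi-likelihood, TMM, R 4.3.3), all 4 groups in 1 fit, threshold 0.05. Arterial sums left out bleomycin-NVP mouse 1 and bleomycin-vehicle mouse 1, and interstitial macrophage or monocyte sums left out bleomycin-NVP mouse 1. Same-numbered PBS-vehicle and PBS-NVP libraries deviated together (r = 0.90, 0.69 and 0.79 for numbers 1, 2 and 3), so these numbers may pair the PBS samples, as a hint from the data. For numbers 1 and 2 both libraries also shared a run (1 and 2), so number and run cannot be told apart there. For number 3 the runs were 2 and 3. With the replicate block this comparison still gave 0 calls. Scripts were tested on simulated data. Intervals were not computed, and depth (25686 to 11487821 UMIs per class and library) limits low genes. Alternatives included DESeq2 1.42.0, other normalization, clustering and filters, and each library left out. The 9 genes were named in full, pathway genes by count and by the 3 smallest adjusted p in each direction, and like-patterned genes by the 2 highest r. The genes, lists and tests were chosen with earlier results of these data known.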

Additional observations from a re-analysis of the deposited data

Results flagged for a closer look

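Nrp1 in ciliated nuclei was singled out because the NVP-BHG712 effect differed between bleomycin-treated and PBS-treated lungs by the interaction test (log2 difference -4.26, edgeR adjusted p = 0.0103). The effect of NVP-BHG712 was -3.84 on the log2 scale after bleomycin and 0.42 after PBS, 3 libraries in each group. Ciliated nuclei of the bleomycin-NVP libraries held 1 to 6 UMIs of Nrp1, and the level was below that of B and T or NK nuclei in the PBS groups, so the value rests on few molecules.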

How the results depend on the processing

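The counts of called members moved with the processing. After bleomycin with vehicle, 6 member-by-class tests were called; the count was 16 with no filter on low counts, 3 with stricter nuclei (500 UMIs or more, 1% mitochondrial or less), 0 with the 6 libraries compared alone, and 0 to 14 when 1 library was left out. For NVP-BHG712 after bleomycin, 5 were called; the count was 13 with DESeq2, 12 with doublets kept, 18 with no filter, 3 with the stricter nuclei, 8 with the libraries compared alone, 2 where no other class was over 10 times higher (chosen after seeing the data), and 2 to 18 when 1 library was left out. For the interaction, 1 was called; the count was 2 with DESeq2, 4 with doublets kept, 6 with no filter, 0 under the limit on other classes, and 0 to 6 when 1 library was left out. Among the counts with 1 library left out, the highest came without bleomycin-vehicle mouse 3, and the cause was not tested. For NVP-BHG712 after PBS, 1 was called with run number as a block and 0 when any library was left out; bleomycin-NVP against PBS-NVP stayed at 0, also when any library was left out. In whole lung, 0 were called; DESeq2 called 1 for NVP-BHG712 after bleomycin, and leaving out 1 library gave 0 to 1 there (Flt4, without bleomycin-vehicle mouse 3) and 0 in the other 4 comparisons.

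None of the 12 called differences reversed in sign under any alternative run. Nrp1 in ciliated nuclei after bleomycin with NVP-BHG712 held its call under all 22 alternatives fitted to it; Vegfa in AT2 with bleomycin under vehicle held it under 9 of 22. The class of highest level was the same under 5 other clusterings for each member but Vegfb.

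Deviations from group means correlated over 0.1 in 10 of 18 same-numbered pairs of libraries (-0.21 to 0.90). They did so in 7 of 36 pairs with different numbers (-0.75 to 0.46). Of the libraries, 9 of 12 correlated best with a library of their own number. The check of the PBS groups is given with the methods. Outside the PBS groups, same-numbered pairs ran from -0.21 to 0.56, and the labels give these mice no link beyond the number. With the replicate block, 12, 13 and 2 tests were called for bleomycin under vehicle, NVP-BHG712 after bleomycin and the interaction, 0 for both other comparisons, and 1 in whole lung for each of the first and second of these (Pgf and Flt4); the block changed no call given in the report from called to not called. Depth limits Pgf and Vegfb in every class.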
